A study of Mus musculus with 32 samples.

Results

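Among the 1178 genes of the synovium table, 230 were lower at MMS D14 than in Control and were still low in R1 and R2. The change L of a gene was the log2 of a group's mean FPKM plus 1, minus the same quantity in Control. A gene was a member where L at MMS D14 was -1 or lower and where the mean of L in R1 and R2, divided by L at MMS D14, was at least 0.5. The first condition held for 645 genes, so the members made up 19.5% of all genes in the table and 35.7% of the lowered genes. The other 415 lowered genes had a ratio under 0.5. The members were chosen by the FPKM values of MMS D14, R1, R2 and Control, so low values in MMS D14, R1 and R2 are description here and carry no test.

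The mice were C57BL/6. The synovium, the membrane that lines a joint, was sampled in 6 groups named by their intervention labels, MMS D3, MMS D7, MMS D14, R1, R2 and Control, with 3 libraries each. Cartilage was sampled in the same groups and in MMS D28, with 2 libraries each. The labels spell out neither MMS, R1 and R2 nor a unit after D, give no age, sex or further genotype, and do not say whether libraries came from separate animals, so p-values measure only the spread between libraries.

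Joint membrane lies on fat tissue, and fat cells there store triglyceride in lipid droplets, release fatty acids by lipolysis and secrete adipokines such as adiponectin and leptin. Mitochondria and peroxisomes break fatty acids down, and fat cells also degrade the branched-chain amino acids leucine, isoleucine and valine. A separate group of genes is induced by interferons, among them the immunity-related GTPases and guanylate-binding proteins, which act against microbes inside cells.

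Both deposited tables hold selected genes. In synovium, 98.0% of the genes differed by at least 1.5-fold between the MMS D14 and Control means, and the median L over all genes was -0.33 at MMS D3, -0.65 at MMS D7, -1.08 at MMS D14, -0.38 in R1 and -0.38 in R2. The members' median was below that of all genes by 0.15, 0.25, 0.35, 0.51 and 0.48 in the same order. When each library was centred on its own median, the rule gave 132 genes, of which 102 were among the 230. Replicate 3 of MMS D3, MMS D7, MMS D14, R2 and Control stood apart from the other 13 libraries: the predicted gene Gm2023 was at 1.71 to 3.36 FPKM in these 5 libraries and at 12.6 to 56.2 FPKM elsewhere. R1 had no such library. Without these 5 the rule gave 208 genes, and 168 of them were among the 230, which is 80.8% of the 208 and 73.0% of the 230. Left out 1 at a time, the 12 libraries of MMS D14, R1, R2 and Control gave 178 to 265 genes, and 123 of the 230 were members every time. Sequencing depth is not given and is unknown. In whole tissue, fewer cells of a type and less RNA per cell cannot be told apart.

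As a group, the members were at 69.5% of Control at MMS D3, 51.0% at MMS D7, 33.4% at MMS D14, 51.5% in R1 and 53.3% in R2, each being the median over 230 genes. The median L was -0.48, -0.90, -1.43, -0.89 and -0.85 in that order. The other lowered genes had medians of -0.59, -0.97, -1.51, -0.60 and -0.59. The gap between them in R1 and R2 is what the rule selected. Summed over members, the 3 libraries of MMS D14 gave 8276, 8903 and 12393 FPKM. R1 gave 16024 to 17600 FPKM, R2 15788 to 19801 FPKM and Control 33104 to 36411 FPKM. Libraries of MMS D3 spread the most, with 18630, 26468 and 31213 FPKM, and its replicate 1 was the lowest.

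**Figure D1:**
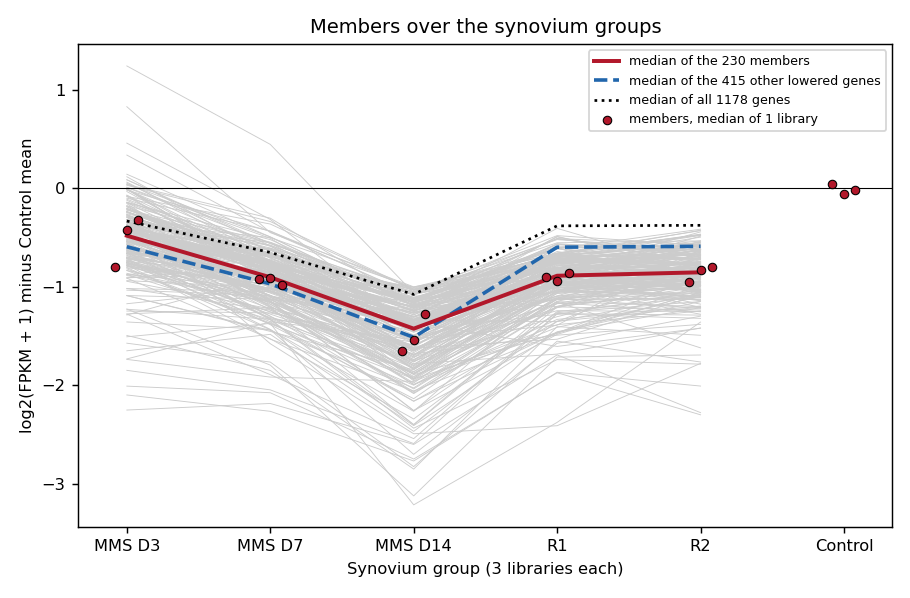
Change of each of the 230 members against Control (grey lines, log2 of group mean FPKM plus 1), with medians of the members, of the 415 other lowered genes and of all 1178 genes, and the members' median in each library (points, 3 per group). The members' median lies at -1.43 at MMS D14 and at -0.89 and -0.85 in R1 and R2, below the other lowered genes there, as the rule requires.

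The ratio that defined the members had a median of 0.569 and ran from 0.5004 to 1.11. It lay between 0.5 and 0.55 for 88 members, between 0.55 and 0.6 for 57, between 0.6 and 0.75 for 65 and between 0.75 and 1 for 19. A single member, Ffar2, was above 1. A further 101 lowered genes had ratios of 0.45 to 0.5, so many genes lay close to the threshold. Just inside were Lctl, Mut and Oplah at 0.5004, 0.501 and 0.501, and just outside were Acy3, C9orf72 and Slc27a1 at 0.49995, 0.499 and 0.499. On the other condition, Retsat, Pex11g and Etfrf1 were just inside with L at MMS D14 of -1.001, -1.01 and -1.01, and Bag4, Nrip1 and Gnal were just outside at -0.99, -0.98 and -0.97.

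**Figure D2:**
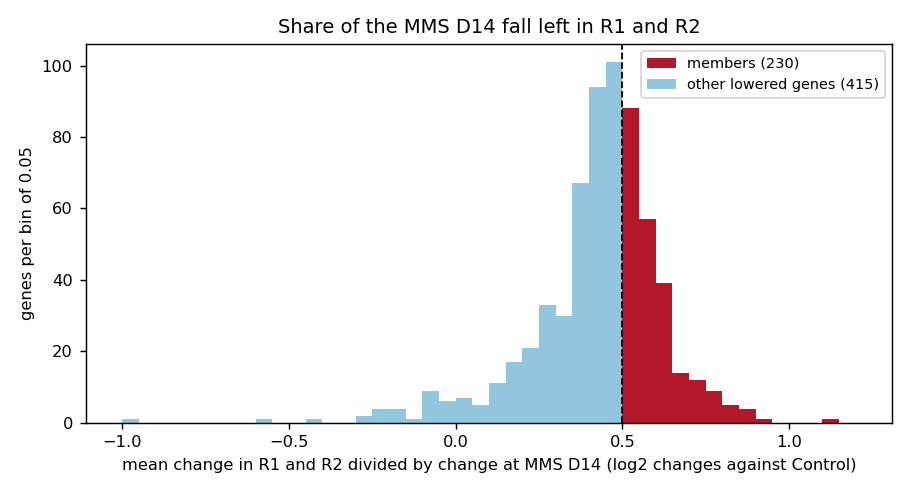
Number of lowered genes by the mean L in R1 and R2 divided by L at MMS D14, in bins of 0.05, for the 230 members and the 415 other lowered genes. The dashed line at 0.5 is the rule's threshold, with 88 members in the bin above it and 101 other genes in the bin below it.

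MMS D3 and MMS D7 took no part in the rule, and the difference between them uses no Control value, although the estimate of spread came from all 18 libraries. In it 73 of the 230 members, 31.7%, were lower at MMS D7 (limma on log2 of FPKM plus 1, adjusted p under 0.05 over all genes), beside 18.3% of all genes. None was higher, beside 12.1% of all genes (30.4% in either direction), and at an unadjusted p under 0.05 limma gave 115 lower and 2 higher. The count moved with single libraries: it was 128 without MMS D3 replicate 1, 25 without MMS D3 replicate 2, 20 without MMS D3 replicate 3 and 30 without MMS D7 replicate 3. It was 39 after centring, with 37 lower and 2 higher, 12 when only these groups were fitted and 35 without the 5 libraries that stand apart. All genes include 337 with L above 0 at MMS D14, unlike the members. Calls among the 415 other lowered genes were not counted. Their median L went from -0.59 at MMS D3 to -0.97 at MMS D7, and that of the members from -0.48 to -0.90, so a fall here was not particular to the members.

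The 6 members with the smallest adjusted p in that comparison were Retsat, Fitm2, Apcdd1, Oplah, Pim3 and Gys1. Retsat, which saturates retinol, had 21.0, 22.97 and 25.1 FPKM at MMS D7, against 44.5, 50.6 and 76.7 FPKM at MMS D3. The groups did not overlap, and Retsat fell by 1.24 ± 0.20 (log2, SE; limma adjusted p = 0.000834). Fitm2, a membrane protein of the endoplasmic reticulum needed for lipid droplet formation, had 21.8, 22.7 and 17.96 FPKM at MMS D7, against 33.8, 41.4 and 41.6 FPKM at MMS D3 (log2 change -0.87 ± 0.16 SE, limma adjusted p = 0.00156). Apcdd1, an inhibitor of Wnt signalling, had 20.4, 24.2 and 20.8 FPKM at MMS D7, against 34.3, 40.9 and 40.5 FPKM at MMS D3 (limma adjusted p = 0.00210). All libraries of MMS D7 were below all libraries of MMS D3 in each of these genes. Oplah, the 5-oxoprolinase of the glutathione cycle, fell by 0.77 on the log2 scale (limma adjusted p = 0.00257). The kinase gene Pim3 fell by 0.93 (limma adjusted p = 0.00361) and the muscle-type glycogen synthase gene Gys1 by 0.73 (limma adjusted p = 0.00389). The calls for Retsat, Fitm2, Apcdd1, Oplah and Pim3 held under every alternative run, and Gys1 missed the threshold, at an adjusted p of 0.0597, when only these groups were fitted.

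Against Control, which also served the rule, 128 members were lower at MMS D3 (limma, adjusted p under 0.05), beside 39.6% of all genes (55.9% in either direction). At MMS D7, 221 were lower, beside 61.6%. Without MMS D3 replicate 1 the count of members called at MMS D3, in either direction, was 81 where it was 130 with all libraries, and with only these groups fitted it was 80. All 3 libraries were below all Control libraries for 132 members at MMS D3, beside 42.4% of all genes, and for 218 at MMS D7, beside 61.8%. For MMS D14 the number was 230, beside 69% of all genes, for R1 227, beside 51.3%, and for R2 215, beside 46.8%. The fit itself called 230 lower at MMS D14, beside 69.3% of all genes lower and 96.9% in either direction. In R1 it called 223 lower, beside 45.2% lower and 61.1% in either direction, and in R2 218, beside 45.1% and 60.8%. The numbers for MMS D14, R1 and R2 rest on the contrasts that chose the members.

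Members were sorted by the group in which L first reached 0.5 of its MMS D14 value. In 48, L at MMS D3 was already at least 0.5 of L at MMS D14. In 150 this point was passed by MMS D7, and in the remaining 32 it was passed by neither group. The highest Control means among the early members belonged to Hadhb, Insig1 and Pnpla3, among the middle ones to Car3, Adipoq and Trf, and among the late ones to Fabp4, Dbi and Sod1. Median L in R1 was -0.94 for the early, -0.89 for the middle and -0.88 for the late members. Without the 5 libraries that stand apart, 72 of the 230 were late; after centring, 82 were early.

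A few members were not lower at first. Prtn3, a serine protease of neutrophils and their precursors, had 34.1, 38.7 and 26.4 FPKM at MMS D3, against 11.4, 14.3 and 14.6 FPKM in Control. It had 5.89, 6.00 and 5.79 FPKM at MMS D14. Retsat was also above Control at MMS D3, where Control had 34.8, 29.9 and 30.7 FPKM. These were the only members called higher than Control at MMS D3, beside 16.3% of all genes. In all, L at MMS D3 was above 0 in 15 members, and at MMS D7 in Prtn3 alone. Without the 5 libraries that stand apart, Prtn3 missed the threshold on L at MMS D14. Plin4, a coat protein of lipid droplets, had 249.7, 268.9 and 247.7 FPKM at MMS D7, against 428.8, 428.0 and 455.9 FPKM at MMS D3, and Control had 277.1 to 389.8 FPKM. Every MMS D7 library was below every MMS D3 library, and the fall after MMS D3 was called (limma adjusted p = 0.0128).

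**Figure D3:**
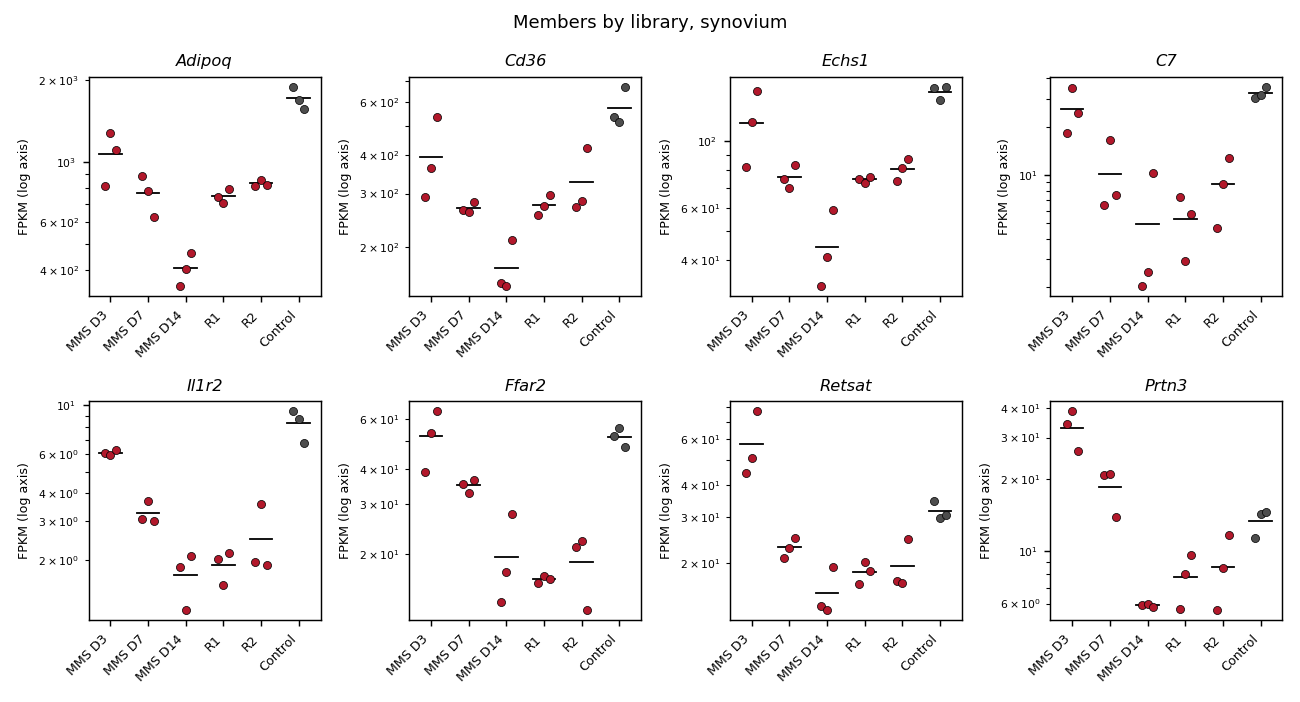
FPKM in each synovium library (points, log axis) for 8 members, with the group mean as a bar. Adipoq, Cd36 and Echs1 are lowest at MMS D14 and in between in R1 and R2, C7, Il1r2 and Ffar2 are as low or nearly as low in R1 and R2 as at MMS D14, and Retsat and Prtn3 are above Control at MMS D3.

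Of the fat-cell identity list of 20 genes, 16 were in the table, 15 were lowered at MMS D14 and 9 were members. Adipoq, which encodes adiponectin, had 349.5, 403.8 and 462.8 FPKM at MMS D14, 741.3, 706.9 and 792.9 FPKM in R1 and 819.3, 858.2 and 822.8 FPKM in R2, against 1888, 1693 and 1564 FPKM in Control. All R1 and R2 libraries thus lay between those of MMS D14 and Control, without overlap. Fabp4, the fatty acid carrier of fat cells that endothelial cells also make, was the second most abundant member, with 1161, 1288 and 2899 FPKM at MMS D14 and 5849, 5718 and 9160 FPKM in Control. Its replicate 3 was highest in each of the 5 groups that have a library standing apart, and its ratio was 0.531 with them and 0.432 without them. Adig, which encodes adipogenin, likewise went to 0.441 without them and was then no member. Car3, a carbonic anhydrase abundant in fat and in muscle, was the most abundant member of all. It had 1727, 1881 and 2340 FPKM at MMS D14, 3807, 3489 and 3920 FPKM in R1 and 3402, 3585 and 3852 FPKM in R2, against 9710, 7868 and 7328 FPKM in Control.

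The rest of the fat-cell list was also low at MMS D14. Over the 16 genes, FPKM summed to 4423 to 7389 at MMS D14, 12949 to 14718 in R1 and 12855 to 14761 in R2, against 26367 to 31123 in Control. Over the 7 that were no members, it summed to 2784 to 3763 at MMS D14, 9306 to 10127 in R1 and 8031 to 10445 in R2, against 14380 to 22523 in Control. None of the 16 was at 0 in any library. Between MMS D7 and MMS D3, 5 of the 16 and 2 of the 9 members were called lower (limma), beside 18.3% of all genes. Pparg and Cebpa, the transcription factors that drive fat-cell formation, were lowered but were no members, with ratios of 0.473 and 0.446. None of the 5 listed adipogenic factors was a member. On a list of 24 fibroblast genes of the deeper synovium and other tissues, 8 were in the table and none was a member. Their FPKM summed to 9484 to 11053 at MMS D14, 3800 to 4397 in R1 and 3650 to 4986 in R2, against 1808 to 2118 in Control. Lum, Col1a1 and Col3a1, which encode extracellular matrix proteins, had L of 3.34, 2.84 and 2.26 at MMS D14, while the other 5 genes had L of -0.25 to -2.89 and the median of the 8 was -0.53. The 5 listed genes of the lining-layer list summed to 329.2 to 422.2 FPKM at MMS D14, 1104 to 1397 FPKM in R1 and 914.3 to 1877 FPKM in R2, against 610.1 to 779.9 FPKM in Control. Of these 5, 3 were lowered and none was a member. Their median L was -1.41 at MMS D14, 0.18 in R1 and -0.16 in R2, so the sums did not follow the typical gene. What part changes in these marker sums had in the members' levels was not tested.

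Nnat, Arxes2 and Arxes1 had L of -3.21, -3.12 and -2.82 at MMS D14, the lowest of the 9 fat-cell members. Nnat, a small membrane protein gene named neuronatin, had 43.8, 33.1 and 67.8 FPKM at MMS D14 and 79.7, 59.0 and 122.2 FPKM in R1. In R2 it had 133.9, 143.1 and 254.3 FPKM, against 279.3, 378.2 and 709.0 FPKM in Control. R2 was thus above R1 in every library, but the difference was not called. Arxes2 had 7.16, 9.26 and 12.9 FPKM at MMS D14, 25.1, 26.7 and 31.2 FPKM in R1 and 22.2, 22.6 and 39.4 FPKM in R2, against 99.2, 86.8 and 92.7 FPKM in Control. Arxes1 had 3.60, 3.41 and 4.01 FPKM at MMS D14 and 28.2 to 38.0 FPKM in Control. The paralogs lie on chromosome X with 38012 bases between them (GENCODE vM21, GRCm38, the genome of the mm10 build), Arxes2 at chrX:135993824-135995355 and Arxes1 at chrX:136033367-136034946. Their promoter windows in RefSeq (GRCm38.p6), 300 bases from 250 before the gene start, are identical at all 300 positions, which is why a single sequence is shown, with GGGCGG in capitals. How reads were shared between such copies is not given in the sources used here, so their separate levels are uncertain.
Arxes2, chrX:135993570-135993869, plus strand: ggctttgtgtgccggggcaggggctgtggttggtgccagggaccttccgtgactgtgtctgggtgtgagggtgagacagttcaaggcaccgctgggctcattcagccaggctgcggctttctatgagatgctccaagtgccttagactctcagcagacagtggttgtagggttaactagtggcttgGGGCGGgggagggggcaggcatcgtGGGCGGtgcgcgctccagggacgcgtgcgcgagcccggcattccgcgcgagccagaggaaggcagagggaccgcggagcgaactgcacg

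Of the lipid droplet and lipolysis genes, 14 were in the table, all of them were lowered and 6 were members. G0s2 inhibits the first lipase of triglyceride breakdown. It had 35.5, 62.5 and 82.5 FPKM at MMS D14, 70.7, 58.4 and 77.5 FPKM in R1 and 64.3, 75.2 and 90.8 FPKM in R2, against 179.7, 169.5 and 105.1 FPKM in Control. R1 and R2 overlapped with MMS D14 and not with Control. Mgll, which splits monoglycerides, was at 124.2 to 142.9 FPKM over all libraries of R1 and R2 but 1, which had 116.2 FPKM, against 233.5 to 296.4 FPKM in Control. Pnpla2 and Lipe, lipases of the first steps of triglyceride breakdown, had ratios of 0.412 and 0.396 and were no members, with L at MMS D14 of -2.55 and -2.44. The droplet coat gene Plin1 was close to the threshold at 0.492. Between MMS D7 and MMS D3, 5 of the 6 droplet members and 10 of the 14 listed genes were called lower (limma), beside 18.3% of all genes.

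Of 20 listed and lowered genes of fatty acid and triglyceride synthesis, 5 (25%) were members, beside 35.7% of lowered genes and 19.5% of all genes. They were Acsl1, which activates fatty acids with coenzyme A, Dgat1 and Gpat3, acyltransferases of triglyceride assembly, Insig1, a sterol sensor that restrains lipid synthesis, and Gpam, named outside the rule for naming genes. Acsl1 had 60.5, 83.8 and 131.7 FPKM at MMS D14 and 163.3 to 198.7 FPKM over R1 and R2, against 338.6 to 416.2 FPKM in Control. Without the 5 libraries that stand apart, Acsl1 and Dgat1 had ratios of 0.455 and 0.484 and were no members. Between MMS D7 and MMS D3, 7 of the 20 genes and 3 of the 5 members were called lower (limma), beside 18.3% of all genes. The enzymes of new fatty acid synthesis, Fasn and Acaca, had lower ratios of 0.367 and 0.360. Insig1 was an early member with 34.5, 47.4 and 47.6 FPKM at MMS D3 and 55.7, 51.1 and 59.3 FPKM in R1. Its Control libraries spread widely, at 204.1, 150.8 and 83.6 FPKM, with replicate 3 lowest. Pnpla3, a lipid droplet protein, had the same order in Control, 176.0, 152.2 and 89.3 FPKM, and with a ratio of 0.501 it was no member without Control replicate 2, where the ratio was 0.487.

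Fatty acid uptake and oxidation held the most members, 11 of 18 listed genes, and 3 of the 11 and 4 of the 18 were called lower at MMS D7 than at MMS D3 (limma), beside 18.3% of all genes. Cd36, the fatty acid transporter, had 152.3, 149.3 and 211.5 FPKM at MMS D14, 255.6, 272.4 and 296.3 FPKM in R1 and 272.0, 284.1 and 424.0 FPKM in R2, against 534.9, 514.3 and 670.6 FPKM in Control. Its R2 replicate 3 was the highest library outside MMS D3 and Control. Ech1, an enoyl-CoA isomerase, had a ratio of 0.656, with 102.9 to 114.4 FPKM at MMS D14 and 132.2 to 158.2 FPKM over R1 and R2, against 228.4 to 264.7 FPKM in Control. Acadm, the medium-chain acyl-CoA dehydrogenase, and Crat, carnitine acetyltransferase, had ratios of 0.514 and 0.560, and that of Acadm was 0.432 without the 5 libraries. Pdk4 blocks pyruvate oxidation. It had 3.77, 4.50 and 5.05 FPKM in R1 and 6.41, 7.36 and 11.0 FPKM in R2, against 11.7, 13.5 and 14.6 FPKM in Control. Its R1 libraries overlapped with MMS D14, which had 3.16 to 4.69 FPKM, while all R2 libraries were higher.

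Branched-chain amino acid and propionate breakdown had 9 members among 17 listed genes, all lowered at MMS D14, and 3 of the 9 and 8 of the 17 were called lower at MMS D7 than at MMS D3 (limma), beside 18.3% of all genes. Echs1, a hydratase that also serves fatty acid oxidation, had 32.8, 40.9 and 58.9 FPKM at MMS D14, 74.8, 72.6 and 76.3 FPKM in R1 and 73.7, 81.3 and 87.4 FPKM in R2, against 150.8, 137.7 and 152.1 FPKM in Control. Bckdhb encodes a subunit of the branched-chain ketoacid dehydrogenase. It had 36.2, 37.7 and 38.2 FPKM in R1 and 32.8, 37.1 and 43.7 FPKM in R2, against 68.2, 63.4 and 79.1 FPKM in Control. Pccb, a propionyl-CoA carboxylase subunit, was at 48.2 to 52.6 FPKM in all 6 libraries of R1 and R2, against 83.7 to 94.6 FPKM in Control. Bcat2, which starts the pathway, had a ratio of 0.476 and was no member. Echs1 and Mut, the methylmalonyl-CoA mutase, fell under the threshold without the 5 libraries, with ratios of 0.472 and 0.407.

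Of 7 listed genes of mitochondrial respiration 5 were members, and of 10 listed genes of glucose and pyruvate metabolism 3 were members. Between MMS D7 and MMS D3, 0 of the 7 respiration genes were called lower (limma), beside 18.3% of all genes. For glucose and pyruvate metabolism, 3 of the 10 genes and 1 of the 3 members were called lower. Cs, citrate synthase, had 94.6, 89.6 and 92.1 FPKM at MMS D14, 155.6, 138.0 and 138.7 FPKM in R1 and 132.4, 140.0 and 105.2 FPKM in R2, against 232.5, 205.2 and 179.9 FPKM in Control. Sdha, a subunit of succinate dehydrogenase, was at 93.0 to 107.9 FPKM over R1 and R2, against 144.1 to 174.3 FPKM in Control. Etfa and Etfb, which together pass electrons from fatty acid oxidation to the respiratory chain, had like ratios of 0.612 and 0.568. Cox8b, a cytochrome oxidase subunit, was no member, with a ratio of 0.162. Gys1 had 29.9, 31.7 and 30.3 FPKM in R1 and 27.7, 29.5 and 26.5 FPKM in R2, against 65.6, 57.0 and 51.5 FPKM in Control. The glucose transporter gene Slc2a4 had a ratio of 0.436 and was no member.

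Of 15 listed hormone and metabolite receptors, 11 were lowered and 6 were members. Between MMS D7 and MMS D3, 3 of the 15 and 1 of the 6 members were called lower (limma), beside 18.3% of all genes. Ffar2, a receptor for short-chain fatty acids, was with all libraries the only member lower in both R1 and R2 than at MMS D14. It had 13.6, 17.3 and 27.8 FPKM at MMS D14, 15.9, 16.8 and 16.4 FPKM in R1 and 21.3, 22.2 and 12.7 FPKM in R2, against 52.1, 55.6 and 47.7 FPKM in Control. MMS D14, R1 and R2 overlapped, and at MMS D3 Ffar2 had 38.9 to 63.7 FPKM. MMS D14 replicate 3, the highest there, is one of the 5 libraries that stand apart, and without them the ratio of Ffar2 was 0.843, so that R1 and R2 were on average above MMS D14. Tshr, the thyrotropin receptor, had 11.7, 9.63 and 11.6 FPKM in R1, against 40.2, 36.1 and 21.6 FPKM in Control, with a ratio of 0.855. Ghr, the growth hormone receptor, had 108.3 to 123.3 FPKM over R1 and R2, against 207.7 to 269.9 FPKM in Control. Hcar2, a receptor for ketone bodies and niacin, had 6.94, 8.09 and 7.38 FPKM in R1 and 11.4, 12.9 and 10.8 FPKM in R2, against 20.7 to 24.3 FPKM in Control. Il1r2, the decoy receptor that binds interleukin-1 without signalling, had 1.85, 1.18 and 2.08 FPKM at MMS D14, 2.01, 1.53 and 2.14 FPKM in R1 and 1.96, 3.57 and 1.90 FPKM in R2, against 9.40, 8.71 and 6.76 FPKM in Control. Il1r2 fell between MMS D3 and MMS D7 by 0.75 ± 0.18 (log2 and SE, limma adjusted p = 0.00799), under every alternative run. It was the only member on a neutrophil and monocyte list of which 2 genes were in the table. The other gene went the other way, with 4.26 to 10.99 FPKM at MMS D14 and 2.33 to 3.54 FPKM in R1, against 1.78 to 2.34 FPKM in Control. That gene was called higher than Control at MMS D3 and MMS D7 (limma).

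Hsd11b1, which regenerates active glucocorticoid inside cells, had 2.85, 5.91 and 10.4 FPKM at MMS D14, 10.8, 10.4 and 11.7 FPKM in R1 and 9.26, 11.1 and 11.5 FPKM in R2, against 45.4, 34.8 and 36.7 FPKM in Control. Its R1 and R2 libraries lay in a narrow range far below Control, while MMS D3 spread from 15.1 to 46.8 FPKM. Hsd11b1 lies at chr1:193221634-193264075 on the minus strand, and the next member, G0s2, lies 8086 bases away on the same strand. Among other members next to each other were Acad12 and Acad10 at 2088 bases, and Aldh1a1 and Aldh1a7 at 49488 bases. These are pairs of related genes named here after their values were seen. Further neighbours included Ech1 and Lgals4 at 1607 bases. The spans of Podn and Scp2 overlapped by 52606 bases and those of Ppp2r1b and Sik2 by 1428 bases. Counting that does not separate related or overlapping genes would affect such pairs, and the sources used here do not describe the counting.

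The complement gene C7 had the lowest mean L over R1 and R2 of all members. It encodes a component of the membrane attack complex, and it had 2.04, 2.50 and 10.3 FPKM at MMS D14, 7.27, 2.90 and 5.71 FPKM in R1 and 4.67, 8.78 and 12.8 FPKM in R2, against 30.3, 31.7 and 35.4 FPKM in Control. MMS D14 replicate 3 was over 4 times the median of its group. C3, the central complement protein, had 224.2, 244.6 and 175.4 FPKM at MMS D14 and 273.0 to 348.3 FPKM over R1 and R2, against 439.7 to 646.6 FPKM in Control. Timp4, an inhibitor of metalloproteinases, had 16.0, 26.6 and 36.7 FPKM in R1 and 19.1, 22.3 and 15.4 FPKM in R2, against 68.6, 72.6 and 39.3 FPKM in Control. Acp5, the acid phosphatase that marks osteoclasts and some macrophages, had a ratio of 0.502. It was the only lowered gene of 6 listed genes of osteoblasts and osteoclasts. The median L of the 6 was -0.70 at MMS D14, 1.07 in R1 and 0.78 in R2. The other 5 summed to 330.7 to 434.3 FPKM at MMS D14 and 278.6 to 366.8 FPKM in R1, against 128.9 to 172.7 FPKM in Control. The growth factor genes Fgf10, Angpt1 and Inhbb were members with ratios of 0.609, 0.555 and 0.530. Without the 5 libraries the ratio was 0.449 for Angpt1 and 0.477 for Inhbb.

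Interferon-induced members rested in large part on 1 Control library. Of 12 listed genes, all lowered at MMS D14, the members were Igtp, Irgm2, Iigp1, Gbp6 and Gbp2. The first 3 encode immunity-related GTPases and the last 2 guanylate-binding proteins. Irgm2 is named outside the rule for naming genes. Between MMS D7 and MMS D3, 1 of the 12 and 0 of the 5 members were called lower (limma), beside 18.3% of all genes. Igtp had 14.2, 20.7 and 14.5 FPKM in R1 and 10.8, 8.68 and 12.5 FPKM in R2, against 23.6, 122.0 and 20.8 FPKM in Control. Control replicate 2 was thus over 5 times either of the others. Iigp1 had 10.3, 13.3 and 13.7 FPKM in R1, against 15.2, 109.1 and 19.8 FPKM in Control, and Gbp6 had 6.70, 7.89 and 6.91 FPKM in R1, against 14.3, 57.1 and 14.98 FPKM in Control. Gbp2 had 23.2, 40.6 and 23.98 FPKM in R1, against 30.3, 85.7 and 31.5 FPKM in Control, and there 1 R1 library overlapped with Control. Control replicate 2 was above 2 times both other Control libraries in 5 members, exactly these, and in 10 of all 1178 genes.

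Without Control replicate 2, Igtp, Iigp1 and Gbp6 were still members with ratios of 0.532, 0.506 and 0.548, and Gbp2 and Irgm2 were not, with L at MMS D14 of -0.96 and -0.91. L in R1 was then -0.41 for Igtp, where it was -1.69 with that library. Psmb9, an interferon-induced proteasome subunit and the only member on the list for major histocompatibility complex class I, had 19.2, 29.4 and 25.1 FPKM in R1, against 39.1, 57.8 and 38.9 FPKM in Control. Its ratio was 0.520 with and 0.458 without Control replicate 2. Gbp7, another guanylate-binding protein gene, and Cd274 were members outside the interferon list and outside the rule for naming genes. Without Control replicate 2, Gbp7 was no member, with a ratio of 0.391 where it was 0.544. Cd274 stayed a member, with a ratio of 0.677 where it was 0.721.

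**Figure D4:**
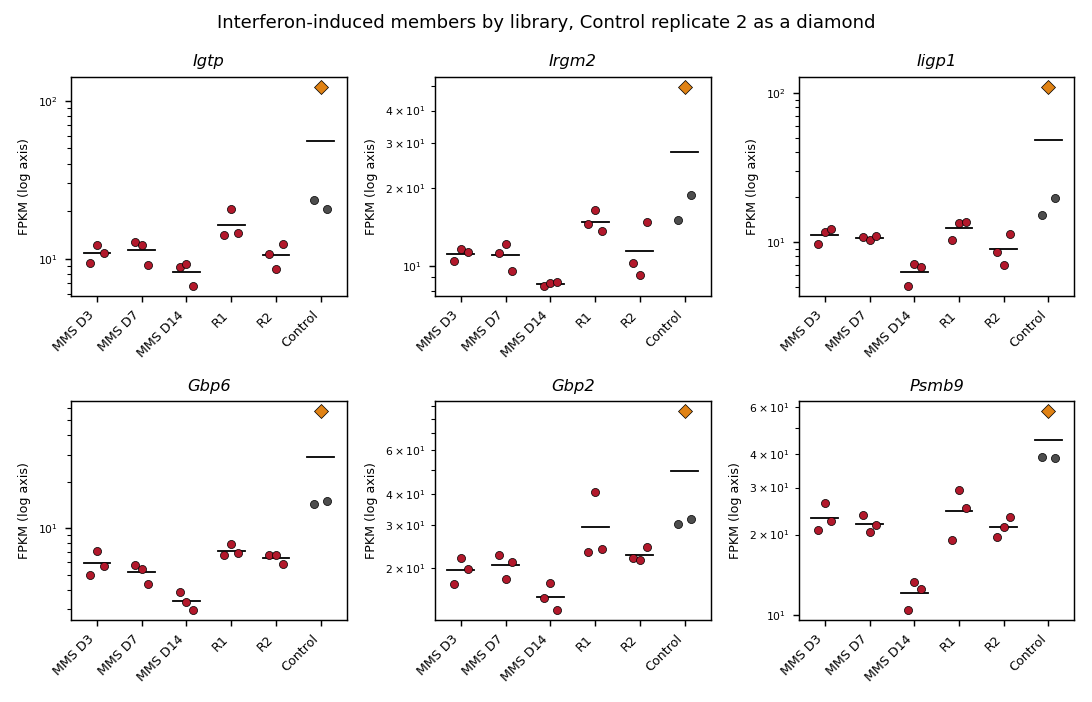
FPKM in each synovium library (points, log axis) of 6 interferon-induced members, with the group mean as a bar and Control replicate 2 as a diamond. Control replicate 2 is the highest library in each of them, at 122.0 FPKM for Igtp beside 23.6 and 20.8 FPKM in the other Control libraries.

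Promoter windows of the interferon-induced members are shown because these genes varied together between the Control libraries. Of the 5 on the interferon list, 3 had a window in the RefSeq table (GRCm38.p6). All 3 windows hold GAAA, any 2 bases and GAAA again on one of the strands. That is the core of the element bound by interferon-activated factors. This motif was added after the values were seen; it was in 4.76% of the 189 members with a window, 4.04% of the genes of the synovium table and 3.99% of all genes. Capitals mark that motif, AGGTCA and GGGCGG, each on either strand.
Igtp, chr11:58199306-58199605, plus strand: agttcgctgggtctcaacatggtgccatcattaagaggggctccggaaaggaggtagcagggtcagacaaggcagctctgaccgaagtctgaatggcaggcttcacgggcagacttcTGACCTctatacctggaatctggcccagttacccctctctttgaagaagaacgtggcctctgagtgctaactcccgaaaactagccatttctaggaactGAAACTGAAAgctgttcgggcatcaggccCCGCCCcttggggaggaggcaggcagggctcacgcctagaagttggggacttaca
Irgm2, chr11:58214727-58215026, plus strand: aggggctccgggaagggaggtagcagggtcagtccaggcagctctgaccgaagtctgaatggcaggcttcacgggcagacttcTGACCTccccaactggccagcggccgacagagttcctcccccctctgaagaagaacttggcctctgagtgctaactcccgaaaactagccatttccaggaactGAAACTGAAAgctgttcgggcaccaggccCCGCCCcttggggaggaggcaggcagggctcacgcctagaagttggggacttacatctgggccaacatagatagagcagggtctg
Gbp2, chr3:142620413-142620712, plus strand: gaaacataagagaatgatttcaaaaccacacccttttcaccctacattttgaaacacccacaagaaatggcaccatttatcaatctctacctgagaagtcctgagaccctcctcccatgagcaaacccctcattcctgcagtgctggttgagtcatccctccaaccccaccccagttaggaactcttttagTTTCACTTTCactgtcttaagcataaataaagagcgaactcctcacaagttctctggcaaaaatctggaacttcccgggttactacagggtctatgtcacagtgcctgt
In GENCODE vM21 the spans of Igtp and Irgm2 overlap by 7973 bases on the plus strand, while the RefSeq window of Irgm2 lies past the end of Igtp, so the annotations differ in where Irgm2 starts. The annotation used for counting is not given in the sources used here.

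Other short motifs were counted in the same windows. GGGCGG, the core of the site bound by Sp1-type factors, was in 71.4% of the members' genes, 65.4% of the table's genes and 38.2% of all genes with a window. TATAAA was in 8.47% of members, 12.7% of the table's genes and 15.7% of all genes. CACGTG, an E-box, was in 11.6%, 11.2% and 8.09% in that order, and AGGTCA, the site of many nuclear receptors, in 19.6%, 17.8% and 18.1%. The direct repeat of AGGTCA with 1 base between was in 0 of the 189 members' genes and in 0.0481% of all genes. Both strands were searched, and a match is a description of letters only.

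Comparing R2 with R1, limma called 0 of the 230 members, beside 0% of all genes; at an unadjusted p under 0.05 it gave 7 members higher and 1 lower, and 52 of 1178 genes in all. L in R2 minus L in R1 had a median of 0.06 and ran from -0.59 to 1.02. R2 was highest relative to R1 in Nnat, Pdk4, C7 and Hcar2. It was lowest in Igtp, Timp4, Mgst3 and Iigp1. Mgst3, a microsomal glutathione transferase, had 98.1, 109.5 and 61.8 FPKM in R2 and 127.6, 120.1 and 123.5 FPKM in R1, where Control had 256.5, 214.6 and 94.5 FPKM. In R2 and in Control, replicate 3 of Mgst3 was the lowest, as it was at MMS D3, MMS D7 and MMS D14. In all, 32 members were highest in replicate 3 of all 5 groups with a library standing apart and 8 were lowest, beside 63 and 85 of all genes.

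Cartilage was measured in other libraries and in a normalised signal of unstated unit. More members were called higher than lower against Control at MMS D14, MMS D28 and R1, but not at MMS D3, MMS D7 or R2. The difference from synovium was not tested. The cartilage table held 30 of the 230 members, where it held 20.4% of all synovium genes. At MMS D14, 5 (16.7%) were lower and 11 (36.7%) higher than in Control (limma, adjusted p under 0.05). Of all cartilage genes, 28% were lower and 25.5% higher. In either direction, 53.3% of the members and 53.5% of all genes were called. After centring, 1 member was lower and 13 higher. In R1, 7 (23.3%) were lower and 15 (50%) higher, beside 33.3% and 36%. In either direction, 73.3% of the members were called there, beside 69.2% of all genes. At MMS D3, 5 (16.7%) were lower and 3 (10%) higher, beside 11% and 12.9% (23.8% in either direction). At MMS D7, 4 (13.3%) were lower and 0 higher, beside 15.6% and 6.79% (22.4% in either direction). At an unadjusted p under 0.05, limma gave 6 lower and 0 higher there. In R2, none was called, beside 0.685% of all genes lower and 0.0623% higher (0.747% in either direction), with 5 lower and 0 higher at an unadjusted p under 0.05. At MMS D28, a contrast in which 97.3% of the table was called, 10 (33.3%) were lower and 18 (60%) higher, beside 54.6% and 42.7%. With 2 libraries a group, single libraries mattered. At MMS D14 the members called numbered 2 and 10 with Control replicate 1 or Control replicate 2 left out, and 7 and 4 with the first or the second MMS D14 library left out. In R1 they were 14 without Control replicate 1. At MMS D3 they were 3 without Control replicate 2 and 2 without MMS D3 replicate 2, and at MMS D7 1 to 2 without Control replicate 2 or either library of MMS D7.

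Prtn3 had a cartilage signal of 686.5 and 844.4 at MMS D14, 899.2 and 773.1 in R1 and 369.6 and 448.0 in R2, against 398.4 and 406.0 in Control. It rose by 0.92 ± 0.21 at MMS D14 and 1.05 ± 0.21 in R1 (log2, SE; limma adjusted p = 0.00338 and 0.00293), while R2 lay around Control. Tspo, a protein of the outer mitochondrial membrane, had 213.2 and 228.3 at MMS D14, 219.4 and 219.6 in R1 and 115.4 and 124.3 in R2, against 116.7 and 125.0 in Control (limma adjusted p = 0.00145 at MMS D14 and 0.00293 in R1). Il1r2 had 25.9 and 31.9 in R1, against 9.48 and 11.1 in Control, and rose by 1.40 ± 0.30 (log2, SE; limma adjusted p = 0.00393). Hsd11b1 had 43.8 and 43.7 in R1, against 24.3 and 25.1 in Control (limma adjusted p = 0.00514). These genes were low in R1 in synovium and high in R1 in cartilage, in libraries that did not overlap with Control in either tissue.

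Others were lower than in Control in cartilage too, or differed by group. Kcnk2, a potassium channel gene, had 4.23 and 3.60 in R1 and 5.73 and 4.49 in R2, against 7.76 and 8.75 in Control (limma adjusted p = 0.00233 in R1). Mrap, an accessory protein of the melanocortin-2 receptor named outside the rule for naming genes, had 1.79 and 1.70 in R1, against 3.43 and 7.05 in Control. Car3 had 54.9 and 42.2 in R1 and 137.7 and 75.5 in R2, against 112.9 and 260.5 in Control, and was called lower in R1 (limma adjusted p = 0.00493). Its Control libraries differed by over 2 times. Timp4 had 20.6 and 18.3 at MMS D3 and 4.52 and 2.77 at MMS D28, against 2.55 and 1.73 in Control. It was called higher in both (limma adjusted p = 2.2e-05 and 0.0454), and the MMS D28 call was lost without Control replicate 2 or MMS D28 replicate 1, with an adjusted p of up to 0.346. Aox1, an aldehyde oxidase, had 4.86 and 4.72 at MMS D3, against 2.26 and 2.41 in Control (limma adjusted p = 0.000967). It was lower in later groups, with 1.68 and 1.49 at MMS D14, 1.41 and 1.32 at MMS D28 and 1.5 and 1.86 in R1 (limma adjusted p = 0.0201, 0.00207 and 0.0311). Over the alternatives the adjusted p reached 0.126 at MMS D14 and 0.199 in R1.

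**Figure D5:**
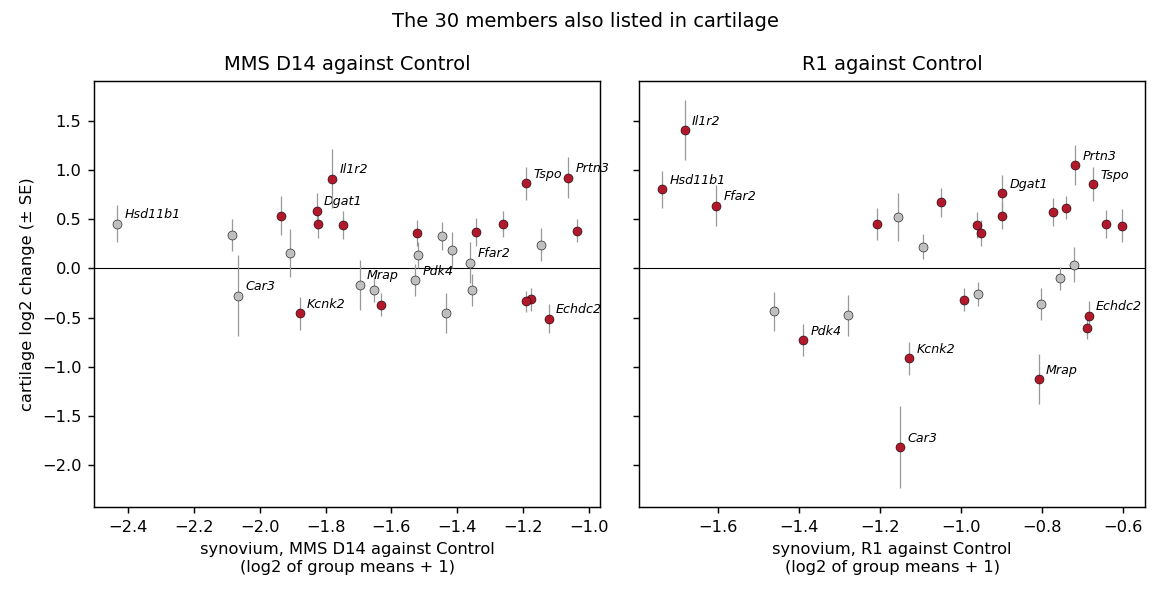
Cartilage log2 change with its SE (limma, 2 libraries per group) against the synovium change of the same gene, for the 30 members listed in both tables, at MMS D14 and in R1. Red points passed an adjusted p under 0.05 in cartilage, with 11 above and 5 below 0 at MMS D14 and 15 above and 7 below 0 in R1, while all synovium changes are below 0 by the rule.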

How the data were processed

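RNA was extracted with Trizol and libraries followed BGI protocols, per the labels' protocols; HISAT2 and mm10 are named in the submitters' processing notes. The synovium values are FPKM per the file headers, deposited by the authors for 1178 genes in 18 samples. The cartilage values, as deposited, are a normalised signal of unstated unit for 1606 genes in 14 samples. Both tables hold selected genes; counts and depth were not used here, so no interval for counting error can be given, and the number of replicates limits the precision.

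Samples were grouped by their labels. Values were taken as log2 of the value plus 1. Each tissue was fitted over all groups and all genes with limma 3.58.1 (R 4.3.3) with a variance trend, and p-values were corrected over every gene of the table by the method of Benjamini and Hochberg. A filter, a value of at least 1 in 3 synovium or 2 cartilage samples, removed 0 genes. The fit was tested on simulated data, where it recovered 86% of changed genes for synovium MMS D3 against Control (1178 genes). There 200 genes were changed by 1 on the log2 scale, and libraries were independent. Smaller changes, such as the members' median L of -0.48 at MMS D3, and libraries that stand apart were not simulated. The rule, lists and tests were chosen with earlier results of these data known. Of the members, 72 are on one of 35 gene lists. Named genes were those with the highest Control means in all, per list and per timing class, the lowest in R1 and R2, those at the thresholds, those with the smallest adjusted p between MMS D7 and MMS D3 and in cartilage, those with the largest difference between R1 and R2, and those with a library over 4 times its group's median; 9 predicted models were counted only. Positions came from GENCODE vM21 (229 members matched) and promoters from RefSeq, GRCm38.p6 (189 matched). The rule was applied with pandas 2.3.3 (Python 3.11.15, numpy 2.4.6) and matplotlib 3.10.9 drew the plots. Alternatives are given at the end.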

Additional observations from a re-analysis of the deposited data

Results flagged for a closer look

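Retsat and Prtn3 were higher than Control at MMS D3 and lower at MMS D7 than at MMS D3. The change from MMS D3 to MMS D7 was -1.24 for Retsat and -0.80 for Prtn3 (log2, limma adjusted p = 0.000834 and 0.0201). The call for Prtn3 was lost without MMS D3 replicate 2, without MMS D7 replicate 3 and with only these groups fitted, and its adjusted p ranged from 0.0149 to 0.0975 over all alternatives; that for Retsat ranged from 0.000193 to 0.0170.

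A set of members had every cartilage library above every Control library, with a call in limma, while every synovium library of the same group was below every synovium Control library. The low synovium values follow largely from the rule. Of all cartilage genes, limma called 25.5% higher at MMS D14 and 36% in R1. How many genes outside the members had the full pattern was not counted. The difference between the tissues was not tested, since the tables have different units. At MMS D14 the cartilage log2 changes were 0.86 for Tspo, 0.58 for Dgat1, 0.53 for Gnai1, 0.44 for Gys1, 0.38 for Hk2, 0.91 for Il1r2, 0.92 for Prtn3, 0.37 for Sh2b2, 0.45 for Rbm47, 0.36 for Apmap and 0.45 for 1 predicted model. In R1 they were 0.58 for Msra, 0.86 for Tspo, 0.76 for Dgat1, 0.54 for Gys1, 0.62 for Hk2, 0.80 for Hsd11b1, 1.40 for Il1r2, 1.05 for Prtn3, 0.43 for Sephs2, 0.64 for Ffar2, 0.45 for Sh2b2, 0.44 for Rbm47, 0.45 for Abcd2, 0.36 for Apmap and 0.67 for 1 predicted model.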

How the results depend on the processing

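The rule gave 230 members, 132 after centring each library on its median, and 178 to 265 when 1 library was left out. Of the 3 timing classes, 82 members were early after centring and 72 were late without the 5 libraries that stand apart, a setting chosen after seeing the data. For members called in synovium, MMS D3 against Control gave 130, 80 with only these groups fitted and 81 to 150 with 1 library left out. MMS D7 against Control gave 221 and 208 to 215 with 1 library left out. MMS D7 against MMS D3 gave 73, 39 after centring, 12 with only these groups fitted, 35 without the 5 libraries that stand apart and 20 to 128 with 1 library left out. In cartilage, the counts with 1 library left out were 2 to 6 at MMS D3, 1 to 3 at MMS D7, 2 to 10 at MMS D14, 23 to 29 at MMS D28, 14 to 18 in R1 and 0 to 1 in R2. At MMS D7 the cartilage count was 2 after centring and 2 with only these groups fitted, where all groups gave 4. The cause of these shifts was not tested. The other alternatives, a pseudocount of 0.1, no variance trend and the group median, kept each count within 1.5 times. A run without the filter could not differ from the main fit, since the filter removed 0 genes.

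For named genes, 180 called comparisons were recomputed in 2196 alternatives. Of these, 1924 kept the call, 272 missed the threshold in the same direction and 0 reversed. The kept calls include those of the run without the filter, which repeats the main fit because the filter removed 0 genes. The labels do not say that a replicate number pairs libraries: of 45 pairs of same-numbered synovium libraries, 26 had correlated deviations above 0.1, with a range of -0.17 to 0.66. With the replicate block, members called were 151 for MMS D3 against Control, 226 for MMS D7 against Control and 103 for MMS D7 against MMS D3 in synovium. The replicate block gave 7, 3, 13, 27, 21 and 0 in cartilage at MMS D3, MMS D7, MMS D14, MMS D28, R1 and R2. Without depth, the counting error of low members such as Fgf10 and Il1r2 cannot be given.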
